A study of Mus musculus with 26 samples.

Results

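Thalamic neurons that carried a retrograde label from the auditory system were compared with thalamic neurons labelled from the motor system. A retrograde label is taken up at axon endings and carried back to the cell body, so that it marks a neuron by the place it projects to. Members were all cells whose projection entry in the authors' cell table was auditory (380 cells of 5 animals) or motor (484 cells of 5 animals), which is 864 of the 1972 cells in a mouse study of 5 thalamocortical projection systems. Raw counts were summed per animal, and each animal was 1 replicate. All 10 animals were entered as male. The entry for age, whose unit is not stated, was 104, 104, 81, 81 and 70 for auditory replicates 1 to 5, and 112, 112, 71, 69 and 69 for motor replicates 1 to 5. Strain, genotype, the labelling agent and its injection site are not given in the sources used here. Per the labels' protocols, thalamic areas were dissected from slices treated with a protease and with blockers of neuronal activity, and fluorescent neurons were picked by hand. Auditory replicates 1 and 2 were in sequencing batch 1, replicates 3 and 4 in batch 2 and replicate 5 in batch 3; motor replicates 1 and 2 were in batch 1, replicate 3 in batch 2 and replicates 4 and 5 in batch 3. Each system had 3 sort dates, with 0 shared between them, so that sort date and projection cannot be told apart.

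Sensory and motor thalamocortical neurons excite the cortex with glutamate and are grouped into nuclei, some of which relay a precise signal while midline, intralaminar and other higher-order nuclei project more diffusely. Neurons of those groups are known to differ in calcium-binding proteins, in the channels that set spike shape and bursting, and in the transmitter and peptide receptors on their surface. The auditory cortex is reached mainly from the medial geniculate complex and its neighbours, and the motor cortex from ventral motor and intralaminar nuclei.

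What was counted per gene were unique molecular identifiers (UMIs), tags that mark single captured transcript ends. An animal's sum held 4317156 (auditory replicate 5) to 20056840 UMIs (motor replicate 2), from 73 to 165 cells. Levels are given as CPM, the UMIs of a gene scaled to a fixed total for the animal, and differences as log2 fold ± SE, auditory minus motor. In sums over cells, fewer cells of a type and less RNA per cell cannot be told apart. Slc17a6, the vesicular glutamate transporter of thalamic relay neurons, was at 622 to 805 CPM in the auditory and 641 to 713 CPM in the motor animals. The defining astrocyte gene Gfap was at 0 in all 10 animals, as were the vascular genes Cldn5 and Ly6c1 and the microglial gene Tmem119. Auditory replicate 5 shares its animal entry with cells of the visual system that have another sort date, and those visual cells were not used.

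The 2 systems differed in which of 3 anchor genes led in a cell. A cell's class was that of its anchor, the gene with the highest CPM in that cell out of Calb2, Necab1 and Tnnt1. Calb2, which codes for the calcium-binding protein calretinin, led in 80.8, 72.4, 57.1, 37.8 and 65.8% of the cells of auditory replicates 1 to 5, and in 10.8, 12.2, 9.09, 8.75 and 9.64% of those of motor replicates 1 to 5. The ranges did not overlap, and the means of 62.8 and 10.1% differed (exact two-sided permutation test, p = 0.0079, adjusted over the 3 classes p = 0.012). With each cell thinned to 20000 UMIs the means were 63.1 and 5.18%, and the share fell most in motor replicates 1 and 2, to 2.70 and 2.44%, against 6.25 to 7.27% in the other motor animals. Necab1, a neuronal calcium-binding protein, led in 11, 10.5, 10.7, 17.6 and 15.1% of auditory cells and in 52.7, 57.3, 17.6, 50.0 and 41.0% of motor cells by animal. Auditory replicate 4 and motor replicate 3 were both at 17.6%, and the means of 13 and 43.7% differed (exact two-sided permutation test, p = 0.0079, adjusted p = 0.012). A share ranks an anchor only against the other anchors of the same cell, and the Necab1 transcript itself was higher in auditory neurons. It was at 313, 344, 245, 196 and 262 CPM in auditory and 186, 180, 84.0, 253 and 141 CPM in motor animals, with overlap (0.82 ± 0.18, edgeR's adjusted p = 0.016, or 0.077 without motor replicate 3). Tnnt1, a troponin of slow muscle that is also found in thalamic relay neurons, led in 8.22, 17.1, 32.1, 43.2 and 19.2% of auditory cells and in 32.4, 22, 65.5, 35.0 and 37.3% of motor cells. Here the animals overlapped, and the means of 24 and 38.4% did not pass the test (exact permutation p = 0.18, adjusted p = 0.18). That test took no account of batch. Within each batch all motor animals lay above all auditory animals in this share. Batch 1 had 32.4 and 22% in motor against 8.22 and 17.1% in auditory animals. Batch 2 had 65.5% against 32.1 and 43.2%, and batch 3 had 35.0 and 37.3% against 19.2%. The Tnnt1 transcript did not pass the test either (1.13 ± 0.37, edgeR's adjusted p = 0.091). With thinned cells the difference in Tnnt1 share went from -14.5 to -7.82 percentage points. The thinned shares of batch 1 overlapped, at 9.59 and 17.1% in auditory and 24.3 and 14.6% in motor animals. Without auditory replicate 4 the Tnnt1 difference was -19.3 percentage points with an unadjusted exact permutation p of 0.032. The smallest p that 5 animals against 5 allow is 0.0079.

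Motor cells also gave more UMIs for each spike-in UMI, the spike-ins being control RNAs added during library preparation. The ratio was 8.86, 10.9, 9.89, 11.6 and 8.79 in auditory and 16.5, 18.8, 17.8, 13.2 and 15.5 in motor replicates 1 to 5. All motor animals lay above all auditory animals, within each batch too, and the mean log2 ratios of 3.31 and 4.02 differed by -0.709 (exact two-sided permutation test, p = 0.0079). The median UMI count per cell averaged 89468 in auditory and 132807 in motor animals and overlapped between them (exact permutation p = 0.26). That test took no account of batch. Within each batch all motor animals lay above all auditory animals in this count too. Batch 1 had 204544 and 215798 in motor against 112406 and 159776 in auditory animals. Batch 2 had 83004 against 65147 and 57588, and batch 3 had 76932 and 83757 against 52422. CPM values are shares of an animal's sum and do not carry the difference in RNA amount against the spike-ins.

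**Figure D1:**
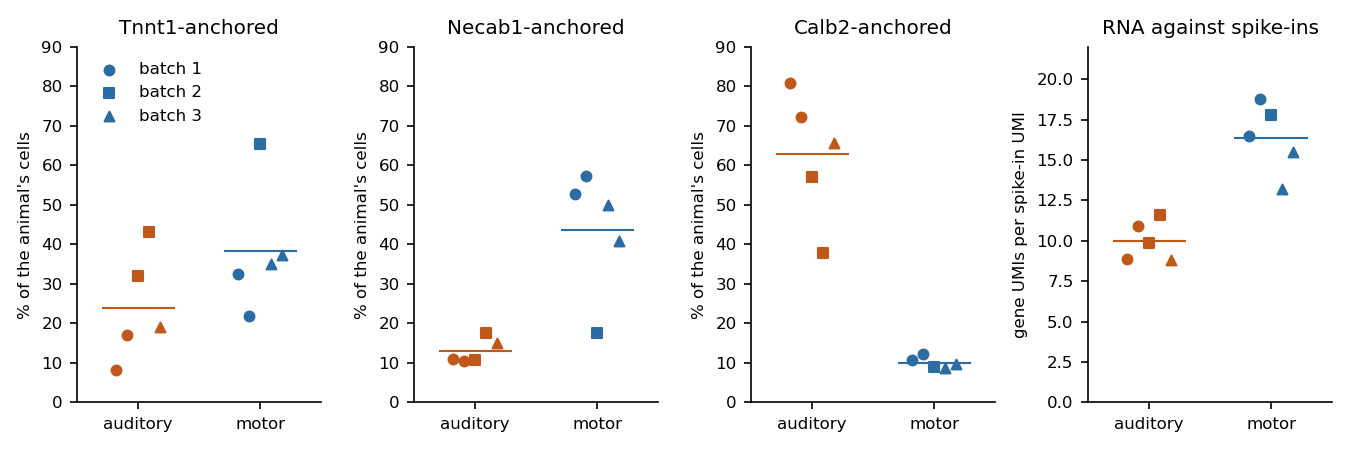
Percent of each animal's cells in the Tnnt1, Necab1 and Calb2 classes (first 3 panels) and gene UMIs per spike-in UMI (last panel) for the 5 auditory animals (orange) and the 5 motor animals (blue); symbols give the sequencing batch and lines the group mean. Calb2-anchored cells make up 37.8 to 80.8% of auditory and 8.75 to 12.2% of motor cells, and all motor animals have more RNA for each spike-in UMI than all auditory animals.

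Over all genes, the fit of the 10 sums with batch as a covariate tested 16717 genes and called 1228 (7.35%) at an adjusted p under 0.05 in edgeR's quasi-likelihood test with Benjamini-Hochberg adjustment. Of these, 584 (3.49% of those tested) were higher in auditory and 644 (3.85%) higher in motor neurons, and the median log2 fold of all genes tested was -0.03. By level alone, all 5 auditory animals lay above all 5 motor animals for 637 genes (3.81%) and below them for 495 (2.96%). Each list count over all cells and each statement on overlap below stands against these shares over all genes. Without auditory replicate 5, the shallowest sum, 650 genes were called (282 higher in auditory and 368 in motor neurons). This was also the only auditory animal of batch 3, so that with batch as a covariate that fit compared the systems within batches 1 and 2 only. Motor replicate 3 was the only motor animal of batch 2, and the fit without it compared them within batches 1 and 3 only. The same holds for each fit below without either animal. DESeq2 called 2035 genes. Within batch 1, 2 or 3 alone 264, 247 and 510 genes were called. Batch 2 held 1 motor and batch 3 held 1 auditory animal, so that in these 2 fits the spread came from the other system's animals alone and the lone animal was assumed to vary like them.

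**Figure D2:**
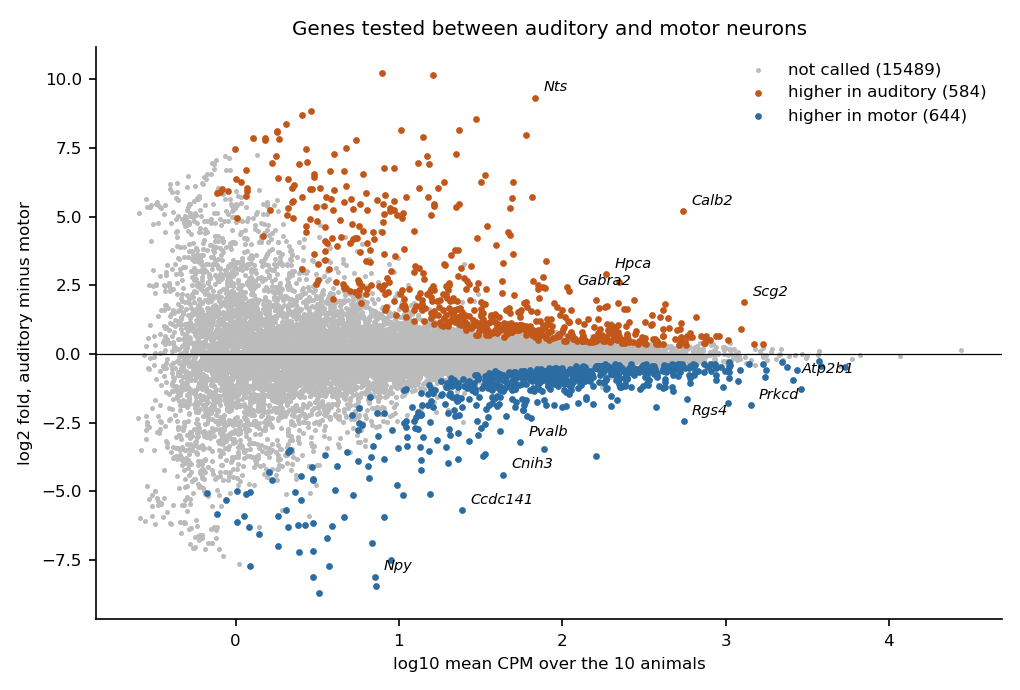
Log2 fold, auditory minus motor, of each of the 16717 genes tested (vertical axis) against the log10 of its mean CPM over the 10 animals (horizontal axis), with the 584 genes higher in auditory neurons in orange, the 644 higher in motor neurons in blue and named examples labelled. Nts lies farthest up among the labelled genes and Npy farthest down, and the folds of abundant genes such as Scg2, Rgs4 and Prkcd are smaller than these.

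Neuropeptides and their carriers were called mostly toward auditory neurons. Of the list's 22 genes 18 were tested, 6 were higher in auditory neurons (Nts, Crh, Grp, Cartpt, Adcyap1 and Scg2) and 2 in motor neurons (Npy and Adm), with a list median of 0.97 against -0.03 for all genes. Nts codes for neurotensin, a peptide that modulates dopamine and glutamate signalling, and lies at chr10:102481756-102490486 on the minus strand (GRCm38). Its level was 90, 149, 107, 103 and 233 CPM in auditory and 0.287, 0.199, 0.126, 0.410 and 0 CPM in motor replicates 1 to 5. Every auditory animal was far above every motor animal, at a log2 fold of 9.33 ± 0.35 (edgeR's adjusted p = 2.2e-08). A UMI of Nts was seen in 18.4% of auditory and 2.89% of motor cells, or 16.3 and 0.413% after each cell was thinned to 20000 UMIs.

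Crh, which codes for corticotropin-releasing hormone, was at 53.6, 40.8, 166, 151 and 72.3 CPM in auditory and 3.38, 0, 0.879, 1.5 and 1.15 CPM in motor animals (log2 fold 5.67 ± 0.68, edgeR's adjusted p = 3.1e-04). Adcyap1, the precursor of the peptide PACAP, was at 54.3, 61.5, 103, 121 and 126 CPM against 2.18, 3.24, 0.690, 2.60 and 2.29 CPM (5.33 ± 0.40, edgeR's adjusted p = 1.3e-05). For both peptides the animals of the 2 systems did not overlap. Cartpt, the precursor of the CART peptide, was more uneven among auditory animals, at 25.1, 27.5, 113, 115 and 367 CPM against 0.126 to 3.69 CPM in motor animals (5.70 ± 0.79, edgeR's adjusted p = 9.1e-04). Grp, which codes for gastrin-releasing peptide, was at 45.7, 6.23, 141, 7.90 and 132 CPM in auditory animals and at 0 to 3.77 CPM in motor animals, and was seen in 3.68% of auditory cells (6.53 ± 1.09, edgeR's adjusted p = 0.0029). Auditory animals differed widely among themselves in Cartpt and Grp, with replicate 5 high in both, and less in Nts.

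Scg2, a granin packed into dense-core vesicles with peptides, differed in a different way, since nearly every cell of both systems had it. It was detected in 100% of auditory and 99.0% of motor cells and was at 1964, 2055, 2043, 1881 and 2389 CPM in auditory and 505, 578, 621, 508 and 477 CPM in motor animals. The animals were tightly grouped and did not overlap (log2 fold 1.88 ± 0.10, edgeR's adjusted p = 8.6e-07). Npy, the neuropeptide Y gene at chr6:49822710-49829507, ran the other way. It was at 18.5, 24.5, 7.72, 12.7 and 7.79 CPM in motor animals and at 0 in auditory animals except replicate 2, at 0.156 CPM (edgeR's adjusted p = 3.9e-05). With 2 UMIs in all auditory cells against 1098 in motor cells, the ratio was 289-fold (95% interval 79.9 to 2391, counting error only). Adm, the vasodilator peptide adrenomedullin, was higher in motor neurons with overlapping animals, at 0.232 to 6.39 CPM in auditory and 2.05 to 23.7 CPM in motor animals (-2.77 ± 0.67, edgeR's adjusted p = 0.025), and its adjusted p was 0.06, 0.078, 0.099 and 0.11 without auditory replicate 3, auditory replicate 5, motor replicate 1 and motor replicate 3.

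**Figure D3:**
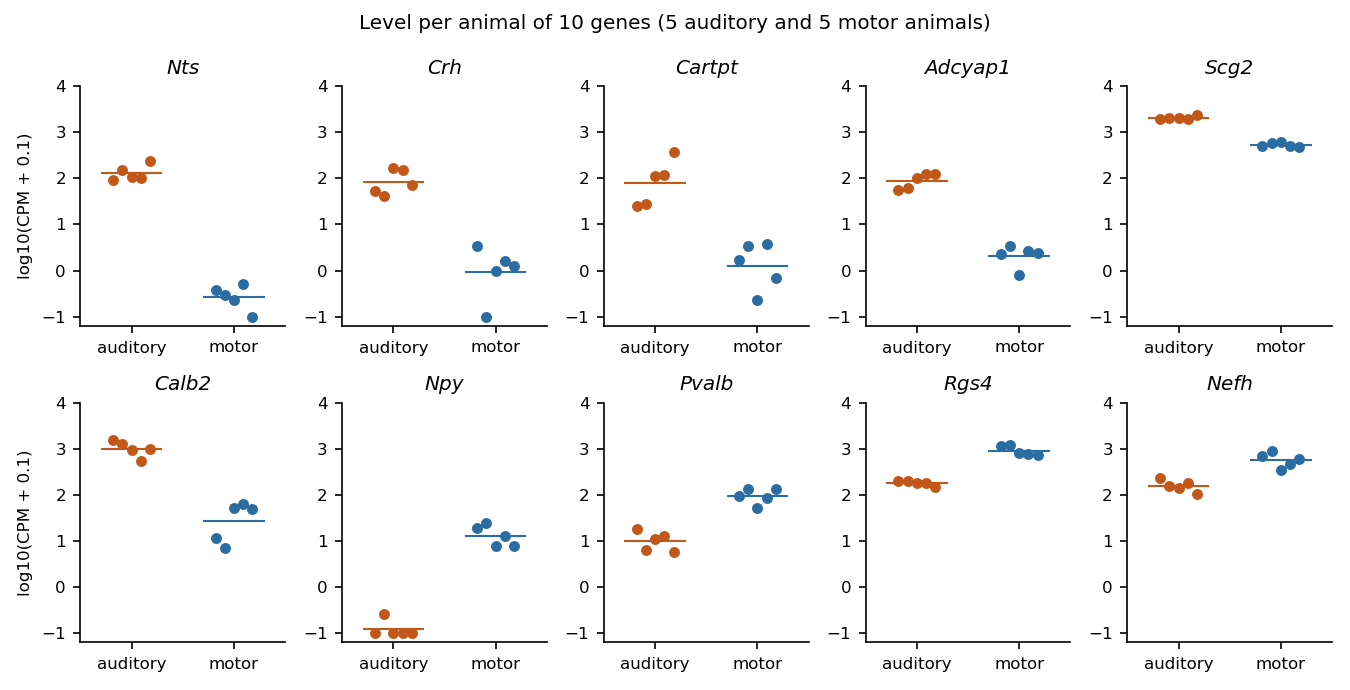
Level of 10 genes in each of the 5 auditory animals (orange) and 5 motor animals (blue), as log10 of CPM plus 0.1, with 1 point per animal and a line at the group mean of the plotted values. The animals of the 2 systems do not overlap in any of the 10 panels; Nts, Crh, Cartpt, Adcyap1, Scg2 and Calb2 are higher in auditory animals and Npy, Pvalb, Rgs4 and Nefh in motor animals.

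The stretches before 3 of the higher peptide genes are shown because each holds 1 of the elements searched for, both of which are bound by transcription factors that respond to activity. The 250 bases before the RefSeq start sites (build GRCm38.p6) were searched on both strands for the cyclic AMP response element TGACGTCA and the AP-1 element TGACTCA, or TGAGTCA on the other strand. Of the 8 called peptide genes 6 were in the promoter table. The following 30 bases, 5′ to 3′ on the gene's strand (minus in all), have the element in capitals:
Nts, AP-1 element 207 to 201 bases upstream, chr10:102490607-102490636: aactctttctgTGAGTCAgaaatcctgagc
Cartpt, cyclic AMP response element 112 to 105 bases upstream, chr13:99900777-99900806: ccggcgggcatTGACGTCAaacggcagcgg
Scg2, cyclic AMP response element 68 to 61 bases upstream, chr1:79440076-79440105: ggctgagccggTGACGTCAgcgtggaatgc
The cyclic AMP response element was in 508 of 32851 such windows (1.55%) and the AP-1 element in 1466 (4.46%). A match is a description of the letters only. The Cartpt and Scg2 stretches lie inside, and the Nts stretch outside, the gene model of the GENCODE vM21 annotation, whose start differs from that of RefSeq.

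Of 16 calcium-binding proteins, which buffer or sense calcium in the cell, 9 were higher in auditory and 4 in motor neurons (median 0.74). Calb2 itself was at 1543, 1290, 937, 549 and 963 CPM in auditory and 11.2, 7.03, 51.6, 63.1 and 49.0 CPM in motor animals, without overlap (5.20 ± 0.58, edgeR's adjusted p = 2.0e-04). Hpca, the calcium sensor hippocalcin, was at 275 to 415 CPM against 9.62 to 107 CPM (2.92 ± 0.39, edgeR's adjusted p = 7.3e-04). Its relative Hpcal1 had 341 UMIs in auditory and 3 in motor cells, a 216-fold ratio (95% interval 73.2 to 1051; edgeR's adjusted p = 6.4e-04). Nrgn, the calmodulin-binding protein neurogranin, was at 43.3 to 206 CPM against 0.150 to 0.628 CPM (7.96 ± 0.32, edgeR's adjusted p = 4.3e-08). Ncald, the sensor neurocalcin, was detected in 93.4% of auditory and 92.4% of motor cells and was higher in auditory neurons, at 281 to 402 against 144 to 172 CPM (1.16 ± 0.12, edgeR's adjusted p = 9.1e-05).

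Parvalbumin (Pvalb), a fast calcium buffer, went the other way. It was at 18.4, 6.31, 10.7, 12.5 and 5.56 CPM in auditory and 94.7, 131, 50.7, 84.7 and 135 CPM in motor animals, which did not overlap (-3.20 ± 0.38, edgeR's adjusted p = 3.0e-04). Necab3, of the Necab1 family, was also higher in motor neurons (15.8 to 60.6 against 64.3 to 189 CPM, -1.69 ± 0.20, edgeR's adjusted p = 3.1e-04). So was Pcp4, a calmodulin regulator, with overlapping animals at 794 to 2959 against 2000 to 5298 CPM (-1.28 ± 0.16, edgeR's adjusted p = 4.1e-04). Over a list of 13 midline and intralaminar markers, 8 were called and all 8 were higher in auditory neurons (median 0.93). Of these, Zcchc12, a co-activator of BMP signalling, was at 324 to 524 against 88.4 to 129 CPM (1.96 ± 0.15, edgeR's adjusted p = 1.8e-05), and 4 of the 8 (Calb2, Nts, Cartpt and Grp) were described above.

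Among transcription factors of the thalamus, 4 of 21 were higher in auditory and 4 in motor neurons, and the median was -0.10. Without auditory replicate 5 or motor replicate 1, 2 or 5, the former 4 became 2. Gbx2, which specifies thalamic neurons, was at 249, 285, 343, 314 and 253 CPM in auditory and 51.5, 63.8, 104, 102 and 102 CPM in motor animals (1.74 ± 0.16, edgeR's adjusted p = 4.4e-05). Bcl11a, a zinc finger factor of developing neurons, was at 87.9 to 142 against 1.30 to 52.1 CPM (2.67 ± 0.56, edgeR's adjusted p = 0.011). Nr2f1 and Nr2f2, the COUP nuclear receptors that pattern thalamus and cortex, were both higher in motor neurons. Nr2f1 was at 108 to 133 against 212 to 272 CPM (-1.06 ± 0.11, edgeR's adjusted p = 1.1e-04) and Nr2f2 at 13.8 to 41.3 against 53.9 to 106 CPM (-1.65 ± 0.21, edgeR's adjusted p = 4.7e-04). Lef1, a Wnt effector, was at 148 to 211 against 271 to 345 CPM (-0.87 ± 0.13, edgeR's adjusted p = 0.0013). Tcf7l2, the Wnt effector that marks thalamic neurons, was at 1013 to 1505 against 670 to 967 CPM (0.51 ± 0.12, edgeR's adjusted p = 0.021); its adjusted p was 0.052, 0.064, 0.056 and 0.053 without auditory replicate 5 and motor replicates 1, 2 and 5.

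Receptors for modulators were sparse in both systems, with 36 of 52 listed genes tested. Of these, 8 were higher in auditory and 3 in motor neurons (median 1.16), and without auditory replicate 5 the 8 became 4. Htr2c, a serotonin receptor, was at 167, 184, 102, 87.8 and 170 CPM in auditory and 2.64, 3.34, 37.5, 28.4 and 17.8 CPM in motor animals, without overlap (3.39 ± 0.64, edgeR's adjusted p = 0.0063). Receptors that were nearly absent from motor neurons were the α2A adrenergic receptor gene Adra2a, the neurokinin receptor gene Tacr3 and the orexin receptor gene Hcrtr2. Adra2a had 137 UMIs in auditory and 0 in motor cells, at least 86.7-fold higher when the motor total is set at 3 counts (edgeR's adjusted p = 0.011). Tacr3 had 96 against 0 UMIs, at least 60.7-fold higher on the same floor (edgeR's adjusted p = 0.019, or 0.055 and 0.084 without auditory replicates 3 and 5). Hcrtr2 had 176 against 2 UMIs, a 167-fold ratio (95% interval 45.6 to 1390; edgeR's adjusted p = 0.0014). Even in auditory animals these 3 receptors stayed under 14 CPM and were seen in 2.37, 3.68 and 5.00% of the cells.

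GABA-A receptor subunits differed in both directions. Of 18 GABA and glycine receptor genes 6 were higher in auditory neurons, among them Gabra2, Gabra5, Gabrg1, Gabrg3 and Glra2, and 2 in motor neurons (Gabra4 and Gabrd), at a list median of -0.03. Gabra2, the α2 subunit, was at 145, 146, 262, 225 and 149 CPM in auditory and 32.8, 29.2, 35.5, 45.8 and 25 CPM in motor animals (2.29 ± 0.18, edgeR's adjusted p = 2.0e-05). Gabrg1, the γ1 subunit, was at 37.7 to 86.9 against 0.956 to 4.70 CPM (4.23 ± 0.40, edgeR's adjusted p = 5.9e-05). Gabrg3, the γ3 subunit, was at 71.5 to 97.4 against 11.4 to 34.3 CPM (2.14 ± 0.26, edgeR's adjusted p = 3.9e-04). Both motor-enriched genes code for the α4 and δ subunits, which form the extrasynaptic receptors of thalamic relay neurons. Gabra4 was at 178 to 493 CPM in auditory and 632 to 690 CPM in motor animals (-1.35 ± 0.17, edgeR's adjusted p = 4.3e-04). Gabrd was at 146 to 221 against 389 to 452 CPM (-1.28 ± 0.12, edgeR's adjusted p = 5.9e-05). None of the 8 genes had overlapping animals. Without motor replicate 3, the 2 genes higher in motor neurons became 4.

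Glutamate receptors and their auxiliary subunits were also split. Of 17 AMPA receptor genes tested 3 were higher in auditory and 5 in motor neurons (median -0.01), and of 22 other glutamate receptor genes 3 and 4 (median 0.17). Without auditory replicate 5 the 3 and 4 became 1 and 2, and without motor replicate 3 they became 5 and 2. Cnih3, a cornichon that slows AMPA receptor gating, was at 0.114, 8.57, 4.70, 3.51 and 2.08 CPM in auditory and 55.0, 39.2, 154, 93.8 and 74.1 CPM in motor animals, without overlap (-4.39 ± 0.61, edgeR's adjusted p = 9.0e-04). Gsg1l, another auxiliary subunit, was at 0 to 0.463 against 6.13 to 16.9 CPM (-5.13 ± 0.60, edgeR's adjusted p = 2.8e-04). Cacng3, a TARP subunit, went the other way at 29.2 to 82.4 against 4.34 to 14.6 CPM (2.38 ± 0.34, edgeR's adjusted p = 0.0012). So did Nptx1, a pentraxin that gathers AMPA receptors, at 4.12 to 18.5 against 0 to 0.688 CPM (5.65 ± 0.92, edgeR's adjusted p = 0.0026). The NMDA receptor subunit genes Grin2a and Grin2b were higher in motor neurons, at 108 to 163 against 220 to 260 CPM (-0.95 ± 0.14, edgeR's adjusted p = 0.0014) and at 268 to 399 against 430 to 551 CPM (-0.61 ± 0.09, edgeR's adjusted p = 0.0018).

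Voltage-gated sodium channels, which carry the upstroke of the action potential, were called in both directions. Of 13 genes 4 were higher in auditory (Scn2a, Scn3a, Scn3b and Fgf13) and 4 in motor neurons (Scn1a, Scn8a and Scn4b among them), with a list median of -0.18. Scn8a, the pore subunit of axon initial segments and nodes, was at 243, 299, 298, 299 and 178 CPM in auditory and 689, 575, 502, 510 and 568 CPM in motor animals (-1.25 ± 0.13, edgeR's adjusted p = 1.3e-04). Scn4b, an auxiliary subunit linked to resurgent current, was at 1.26 to 21.6 against 38.2 to 96.7 CPM (-3.64 ± 0.60, edgeR's adjusted p = 0.0027). Scn2a and Scn3b, a pore and an auxiliary subunit, were higher in auditory neurons, at 662 to 781 against 405 to 531 CPM (0.61 ± 0.10, edgeR's adjusted p = 0.0035) and at 582 to 874 against 130 to 218 CPM (1.83 ± 0.16, edgeR's adjusted p = 4.3e-05). Without auditory replicate 5 the adjusted p was 0.065 for Scn1a and 0.066 for Fgf13.

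Potassium channels, which repolarise the cell, were more often higher in motor neurons: of 48 genes tested 4 were higher in auditory and 12 in motor neurons (median -0.31). Kcna1, a low-threshold channel of axons, was at 39.7, 50.6, 89.6, 97.2 and 47.0 CPM in auditory and 210, 187, 153, 163 and 210 CPM in motor animals (-1.77 ± 0.23, edgeR's adjusted p = 5.0e-04). Kcnj3, a channel opened by G proteins, was at 42.6 to 119 against 166 to 225 CPM (-1.58 ± 0.16, edgeR's adjusted p = 9.1e-05), and Kcnf1, a silent modulatory subunit, at 9.39 to 37.1 against 80.8 to 144 CPM (-2.31 ± 0.32, edgeR's adjusted p = 9.8e-04). The 4 genes higher in auditory neurons were Kcnip1, Kcnip2, Kcnc4 and Kcnk2. Kcnip1, an auxiliary subunit of A-type channels, was at 41.3, 10.4, 57.4, 37.3 and 71.1 CPM against 0.229, 0.997, 0.502, 0.546 and 4.58 CPM (5.37 ± 0.64, edgeR's adjusted p = 3.1e-04). Kcnk2, a leak channel, was at 16.8 to 47.2 against 6.93 to 12.2 CPM (1.52 ± 0.29, edgeR's adjusted p = 0.007). Without auditory replicate 5, Kcnip2 and Kcnc4 had adjusted p-values of 0.072 and 0.1, and 2 genes rather than 4 were higher in auditory neurons.

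Of 19 calcium and pacemaker channel genes 3 were higher in auditory and 4 in motor neurons (median 0.19). Hcn4, a pacemaker channel opened by hyperpolarisation, was at 64.8, 58.8, 66.4, 48.9 and 35.7 CPM in auditory and 82.7, 84.8, 112, 113 and 102 CPM in motor animals (-0.94 ± 0.19, edgeR's adjusted p = 0.0098, or 0.051 without motor replicate 3). The animals of the 2 systems did not overlap. Cacna1e, an R-type calcium channel, was higher in auditory neurons (27.2 to 76.7 against 9.42 to 19.3 CPM, 1.82 ± 0.30, edgeR's adjusted p = 0.0028) and the auxiliary subunit gene Cacna2d3 in motor neurons (35.1 to 68.7 against 74.4 to 150 CPM, -0.94 ± 0.15, edgeR's adjusted p = 0.0018).

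**Figure D4:**
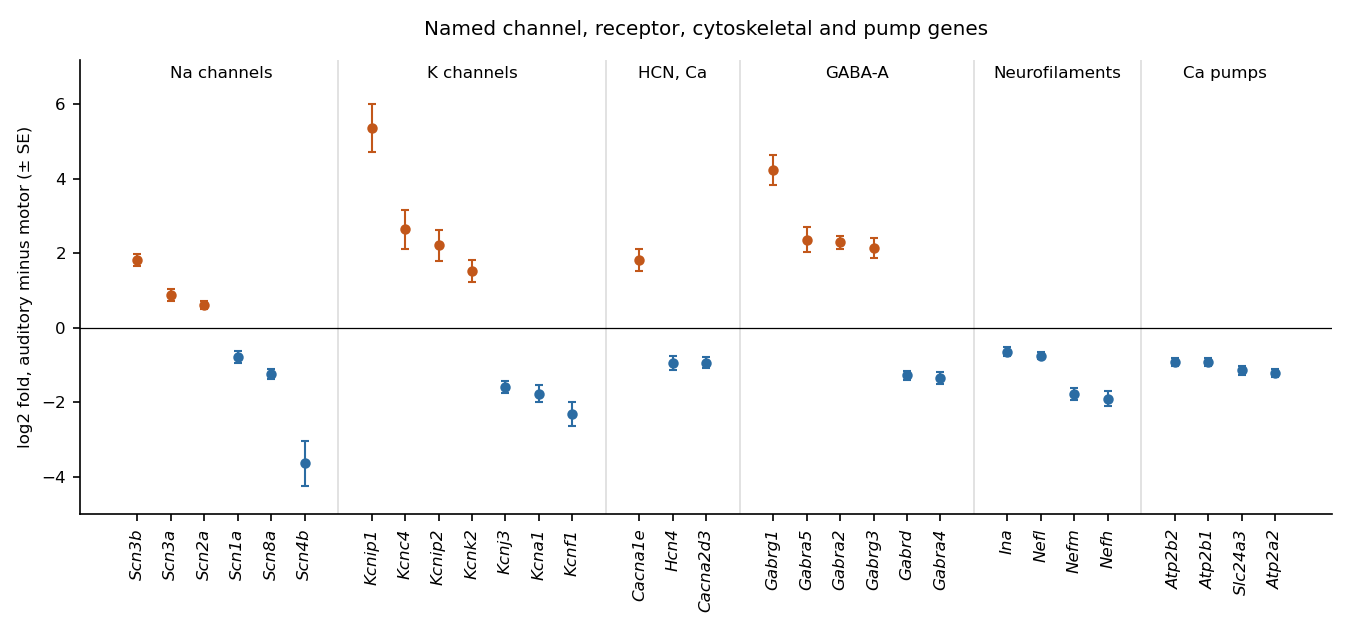
Log2 fold, auditory minus motor, with its SE for 30 named genes of the sodium, potassium, pacemaker and calcium channels, GABA-A receptors, neurofilaments and calcium pumps, all of them called; orange points are higher in auditory and blue points in motor neurons. Sodium channels, potassium channels and GABA-A subunits lie on both sides of 0, while the 4 neurofilaments and 4 calcium pumps and exchangers shown lie below it. The 1 pump or exchanger gene called higher in auditory neurons is not shown.

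Neurofilaments, which set the calibre of long axons, were higher in motor neurons: 4 of 5 genes were called, all in that direction (median -0.75). Nefh, the heavy chain, was at 233, 157, 138, 176 and 106 CPM in auditory and 690, 869, 348, 464 and 585 CPM in motor animals (-1.91 ± 0.20, edgeR's adjusted p = 1.1e-04). Nefm, the medium chain, was at 404, 390, 609, 650 and 476 CPM against 1710, 1797, 1263, 1436 and 1693 CPM (-1.77 ± 0.16, edgeR's adjusted p = 4.4e-05). Neither gene had overlapping animals. Nefl and Ina, the light chain and α-internexin, differed less (-0.75 ± 0.10 and -0.65 ± 0.12, edgeR's adjusted p = 6.2e-04 and 0.0043).

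Of 11 calcium pumps and exchangers, which clear calcium from the cytosol, 1 was higher in auditory and 5 in motor neurons (median -0.56), and the 1 became 0 without auditory replicate 5 and 2 without motor replicate 3. Atp2a2, which pumps calcium into the endoplasmic reticulum, was at 521, 601, 725, 791 and 495 CPM in auditory and 1316, 1477, 1216, 1254 and 1280 CPM in motor animals (-1.21 ± 0.11, edgeR's adjusted p = 5.9e-05). Atp2b1, a pump of the plasma membrane, was at 1295 to 2410 against 3017 to 3370 CPM (-0.93 ± 0.11, edgeR's adjusted p = 2.8e-04). Of 85 nuclear genes of the respiratory chain 17 were called, all higher in motor neurons, and 3 of 85 had a positive fold (median -0.36). Atp5b, a subunit of ATP synthase, was at 719 to 888 against 1029 to 1460 CPM (-0.67 ± 0.10, edgeR's adjusted p = 0.0017). The count of 17 was 6, 11, 10 and 10 without auditory replicate 5, auditory replicate 2, motor replicate 2 and motor replicate 5. Of 8 mRNAs of the mitochondrial genome 0 were called in edgeR, 2 had an unadjusted p under 0.05, and DESeq2 called 1 (median -0.26). Of 76 ribosomal protein genes 2 were called (2.63%, against 7.35% of all genes tested), both higher in auditory neurons (median 0.21). None was called without auditory replicate 5, motor replicate 1, motor replicate 4 or motor replicate 5, and 1 without auditory replicate 1 or motor replicate 2. In glycolysis 1 of 16 genes was higher in auditory and 4 in motor neurons (median -0.26), and the former, Ldha, which makes lactate from pyruvate, was at 200 to 357 against 91.7 to 160 CPM (1.08 ± 0.19, edgeR's adjusted p = 0.0038). Its partner Ldhb, which favours the reverse reaction, was at 1091 to 1511 against 2068 to 2328 CPM (-0.82 ± 0.09, edgeR's adjusted p = 1.9e-04).

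At the presynapse, 8 of 38 genes of vesicle release were higher in auditory and 7 in motor neurons (median 0.02). The synaptotagmins Syt10 and Syt2, calcium sensors for release, had folds of opposite sign. Syt10 was at 20.4, 14.1, 14.9, 15.8 and 37.3 CPM in auditory and at 0 to 0.126 CPM in motor animals (8.14 ± 0.68, edgeR's adjusted p = 3.0e-05). Syt2, the fast sensor, was at 0.458, 0.546, 7.29, 5.27 and 2.55 CPM against 21.2, 16.2, 15.6, 52.0 and 79.5 CPM (-3.97 ± 0.62, edgeR's adjusted p = 0.0019). The complexins, which clamp and speed fusion, also divided. Cplx2 was higher in auditory neurons (21 to 85.0 against 0.683 to 12.8 CPM, 3.22 ± 0.71, edgeR's adjusted p = 0.015) and Cplx1 in motor neurons, with overlapping animals (558 to 1561 against 1221 to 1785 CPM, -0.98 ± 0.17, edgeR's adjusted p = 0.004). Syn2, a synapsin that holds vesicles in reserve, was at 436 to 852 against 217 to 301 CPM (1.33 ± 0.14, edgeR's adjusted p = 1.0e-04).

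Adhesion and guidance genes, which match axons to partners, were called in both directions. Of 56 synapse organizers 9 were higher in auditory and 11 in motor neurons (median 0.13; the 9 became 5 without auditory replicate 5). Tenm2, a teneurin, was at 398, 307, 377, 337 and 456 CPM in auditory and 96.0, 115, 112, 132 and 161 CPM in motor animals (1.63 ± 0.12, edgeR's adjusted p = 1.1e-05). Tenm1 and Tenm4 were also higher in auditory neurons (0.66 ± 0.10 and 0.83 ± 0.15, edgeR's adjusted p = 0.0014 and 0.005). The cadherins Cdh8 and Cdh10 were higher in motor neurons, at 14.1 to 39.2 against 68.3 to 85.1 CPM (-1.73 ± 0.27, edgeR's adjusted p = 0.0019) and 4.13 to 18.2 against 30.3 to 43.7 CPM (-2.20 ± 0.37, edgeR's adjusted p = 0.0033). Cbln1, a cerebellin that bridges neurexins to δ glutamate receptors, was at 0.687 to 3.66 against 12.7 to 31.5 CPM (-3.39 ± 0.47, edgeR's adjusted p = 9.1e-04).

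Of 49 guidance and reelin genes 5 were higher in auditory and 6 in motor neurons (median 0.17). The 5 became 3 without auditory replicate 5 or motor replicates 1, 2 or 5, and 8 without motor replicate 3. Epha4, an ephrin receptor of thalamic axons, was at 303, 334, 282, 352 and 227 CPM in auditory and 583, 638, 631, 677 and 694 CPM in motor animals (-1.19 ± 0.12, edgeR's adjusted p = 1.1e-04). Its relative Epha7 was at 14.5 to 49.4 against 78.7 to 130 CPM (-2.25 ± 0.31, edgeR's adjusted p = 7.7e-04). Among semaphorins, Sema3f was higher in auditory neurons (10.5 to 26.4 against 0 to 0.745 CPM, 5.79 ± 0.91, edgeR's adjusted p = 0.002) and Sema6d in motor neurons (5.04 to 23.9 against 30.6 to 83.4 CPM, -2.68 ± 0.42, edgeR's adjusted p = 0.0019). Dab1, the adaptor through which reelin acts, was at 24.5, 35.3, 53.5, 55.1 and 54.4 CPM in auditory and 0, 0.349, 0.188, 0.819 and 0.115 CPM in motor animals (7.29 ± 0.53, edgeR's adjusted p = 1.1e-05). Of 29 matrix genes 5 and 6 were called (median -0.45), the 5 falling to 1 to 3 when any animal but motor replicate 3 was left out. The 6 included Bcan, the proteoglycan brevican, at 0.229 to 6.58 against 16.1 to 40.3 CPM (-5.10 ± 0.77, edgeR's adjusted p = 0.0015), and Sparcl1, a secreted synaptogenic protein, at 180 to 401 against 545 to 1124 CPM (-1.64 ± 0.14, edgeR's adjusted p = 3.7e-05).

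Inside the cell, 12 of 52 genes of calcium and cyclic nucleotide signalling were higher in auditory and 9 in motor neurons (median -0.04). Rgs4, which shortens signalling by G proteins and lies at chr1:169741477-169747642, had the lowest adjusted p of this list. It was at 200, 203, 176, 178 and 149 CPM in auditory and 1135, 1193, 816, 776 and 723 CPM in motor animals (-2.44 ± 0.09, edgeR's adjusted p = 2.2e-08). Prkcd, a protein kinase C of sensory relay neurons, was at 476, 654, 782, 1407 and 349 CPM against 1568, 1745, 2862, 2034 and 2360 CPM (-1.85 ± 0.22, edgeR's adjusted p = 2.9e-04). Both had no overlap between the systems. Adcy1, a calmodulin-activated adenylyl cyclase, was at 112 to 177 against 279 to 328 CPM (-1.19 ± 0.11, edgeR's adjusted p = 4.5e-05), and Ryr3, a channel that releases stored calcium, at 19.7 to 80.3 against 91.3 to 202 CPM (-1.91 ± 0.30, edgeR's adjusted p = 0.0021). Phosphodiesterases, which break down cyclic nucleotides, were higher in auditory neurons for Pde1c (15.5 to 59.0 against 0.0573 to 1.75 CPM, 5.40 ± 0.64, edgeR's adjusted p = 2.9e-04) and Pde4b (97.9 to 190 against 32.7 to 66.4 CPM, 1.62 ± 0.15, edgeR's adjusted p = 4.6e-05). Camk2d, a calmodulin-dependent kinase, was at 582 to 967 against 237 to 432 CPM (1.12 ± 0.17, edgeR's adjusted p = 0.0015).

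Genes outside these lists were named by size of fold. Among those with the largest folds toward auditory neurons were Tcerg1l, an elongation regulator-like gene, and Ldb2, a cofactor of LIM-homeodomain factors. Tcerg1l was at 50.5, 46.1, 81.8, 46.3 and 88.0 CPM in auditory and 0.115, 0.150, 2.26, 0.273 and 1.72 CPM in motor animals (6.27 ± 0.56, edgeR's adjusted p = 4.3e-05). Ldb2 was at 68.1 to 145 against 0.229 to 5.04 CPM (6.25 ± 0.42, edgeR's adjusted p = 5.3e-06). Tcerg1l was found in 54.2% of auditory and 4.34% of motor cells, and Ldb2 in 49.5 and 4.96%. Toward motor neurons, by the same rule, the list opened with Ccdc141, a coiled-coil protein of neuronal migration, at 0, 0.390, 4.86, 1.10 and 1.39 CPM in auditory and 30.9, 51.6, 72.0, 49.7 and 29.9 CPM in motor animals (-5.69 ± 0.60, edgeR's adjusted p = 1.3e-04). Fam19a2, a secreted chemokine-like protein, was at 0.878 to 6.49 against 27.8 to 52.4 CPM (-3.82 ± 0.42, edgeR's adjusted p = 1.6e-04). Abhd12b, a hydrolase, was at 9.50 to 117 CPM against 177 to 472 CPM (-3.70 ± 0.34, edgeR's adjusted p = 4.6e-05). None of these 5 genes had overlapping animals.

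Immediate early genes, which rise with neuronal activity and with tissue handling, were tested for 19 of 21 listed, and 3 were higher in auditory and 0 in motor neurons (median 0.67). Jun was at 111, 172, 227, 230 and 272 CPM in auditory and 49.2, 56.7, 112, 123 and 75.5 CPM in motor animals, which overlapped (1.26 ± 0.17, edgeR's adjusted p = 6.8e-04). The count of 3 was 1 without auditory replicate 2, auditory replicate 3, motor replicate 2 or motor replicate 3. The 2 systems had no sort date in common, and the part of sort date in this result was not tested apart from projection.

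Markers of other cell types moved with projection among astrocyte and GABA neuron genes. Among astrocyte markers 5 of 10 were tested and 2 were higher in motor neurons, with a list sum of 160 to 271 CPM in auditory and 377 to 582 CPM in motor animals and a list median of 0.74 (-1.40 to 2.90 over the alternatives run). The other 3 tested members, Slc1a3, Mlc1 and Gjb6, had positive folds and did not pass the test (2.17, 4.58 and 0.74, edgeR's adjusted p = 0.46, 0.13 and 0.9), at 10.7, 3.51 and 3.20 CPM or less in auditory and 1.26, 0.188 and 1.55 CPM or less in motor animals. Nearly all of that sum was Slc1a2, a glutamate transporter (146 to 233 against 325 to 556 CPM, -1.15 ± 0.14, edgeR's adjusted p = 3.9e-04), while Gfap was at 0 and Aqp4 and Gja1 were at 0 to 5.02 CPM. Slc4a4 was the other, and its adjusted p of 0.034 became 0.06 to 0.19 without auditory replicates 3, 4 or 5 or motor replicates 2, 3, 4 or 5. Of the enzyme and vesicle genes that define GABA neurons, Slc32a1 was at 0 in all 5 auditory animals and Gad1 at 0.162 CPM or less. Gad2 had 121 auditory UMIs, most of them in replicate 5 (21.3 CPM), against 1 in motor cells, and its adjusted p of 0.016 became 0.05 and 0.056 without motor replicates 4 and 5; without auditory replicate 1 or 5 Gad2 did not pass the filter on low counts. The part of other cells in the results for Slc1a2 and Gad2 was not tested. Oligodendrocyte markers summed to 51.6 to 416 against 28.0 to 463 CPM and microglial markers to 148 to 183 against 128 to 184 CPM. Of 10 oligodendrocyte genes 0 were called by edgeR or DESeq2 and 1 had an unadjusted p under 0.05, and of 2 microglial genes tested 0 were called or had such a p. When cells with at least 3 detected markers of another cell type (19 auditory and 40 motor cells) were left out, all named genes but Egr1 kept their call.

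Because the systems differed in class make-up, they were also compared within each anchor class, again summed per animal. Calb2-anchored cells numbered 238 in auditory animals and 48 in motor animals (7 to 15 for each motor animal), and gave 132 genes higher in auditory (0.968%) and 61 in motor neurons (0.447%) of 13641 tested (1.41% in all). Necab1-anchored cells (49 auditory, 8 to 13 for each animal, and 189 motor) gave 23 and 23 (0.185% each) of 12429 (0.370% in all). Tnnt1-anchored cells (92 auditory, 6 to 32 for each animal, and 209 motor) gave 18 and 24 (0.134 and 0.178%) of 13469 (0.312% in all). The anchor itself was not tested, and each anchor was higher in the auditory sums of its own class. Tnnt1 averaged 713 ± 117 CPM (SD) in the Tnnt1-anchored sums of auditory and 246 ± 133 CPM in those of motor animals, and Necab1 averaged 670 ± 66.1 and 396 ± 73.9 CPM in the Necab1-anchored sums. Calb2 averaged 1536 ± 226 CPM (SD) in the Calb2-anchored sums of auditory animals and 250 ± 209 CPM in those of motor animals, where replicates 1 and 2 were at 36.7 and 9.95 CPM and replicates 3 to 5 at 361 to 445 CPM. The median log2 fold of all genes tested was 0.15 in the Calb2, -0.20 in the Necab1 and -0.14 in the Tnnt1 class. These counts moved with single animals. The 193 genes of the Calb2 class became 95, 97, 128, 120 and 54 without auditory replicates 1 to 5 in turn. The 46 of the Necab1 class became 29, 29 and 9 without auditory replicates 3, 4 and 5, and 18, 18, 12 and 26 without motor replicates 1, 2, 3 and 5. The 42 of the Tnnt1 class became 20 and 12 without auditory replicates 3 and 5, and 17, 15, 20 and 19 without motor replicates 1, 2, 4 and 5.

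Rgs4 was higher in motor neurons of every class and kept its call when any 1 animal was left out. In Tnnt1-anchored sums it was at 84.6, 215, 214, 217 and 240 CPM in auditory and 1311, 1419, 851, 749 and 747 CPM in motor animals (-2.44, edgeR's adjusted p = 0.003). In Necab1-anchored sums it was at 139 to 293 against 630 to 1011 CPM (-2.07, edgeR's adjusted p = 0.0038), and in Calb2-anchored sums at 100 to 204 against 885 to 1408 CPM (-2.89, edgeR's adjusted p = 4.1e-07). Scg2 was higher in auditory neurons of all 3 classes, by 1.37 in the Tnnt1, 1.24 in the Necab1 and 2.30 in the Calb2 class (edgeR's adjusted p = 0.0028, 0.01 and 4.1e-07; 0.086 in the Necab1 class without auditory replicate 5).

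In all, 7 genes were called in each of the 3 classes: Rgs4, Prkcd and Atp2a2 toward motor neurons, and Scg2, Tcerg1l, Fam19a1 and Tox toward auditory neurons. Fam19a1, a chemokine-like protein, and Tox, a nuclear HMG-box protein, lie outside the rule for named genes and were chosen after their values were seen. Fam19a1 differed by 5.72, 2.88 and 4.29 and Tox by 1.99, 1.48 and 2.02 in the Tnnt1, Necab1 and Calb2 class. Both are side by side with their folds over all cells, 3.65 ± 0.23 and 1.67 ± 0.14. Outside Rgs4, each of the 7 lost its call in at least 1 class when 1 animal was left out. Prkcd in the Tnnt1 class had adjusted p-values of 0.082 to 0.21 without auditory replicates 2, 3 or 5 or motor replicates 2 to 5, and Atp2a2 there had 0.05 to 0.13 without any animal but auditory replicate 4 and motor replicate 3. Nefm was at 279, 187, 262, 225 and 191 CPM in auditory and 1324, 1382, 1099, 700 and 1198 CPM in motor animals in the Necab1 class (-2.40, edgeR's adjusted p = 8.3e-05). It was called in the Tnnt1 class too (-1.54, edgeR's adjusted p = 0.0063, or 0.069 without auditory replicate 5), and in the Calb2 class, where motor replicates 1 and 2 were at 1968 and 1975 CPM and the others at 314 to 876 CPM, it had a fold of -1.08 (edgeR's adjusted p = 0.3).

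**Figure D5:**
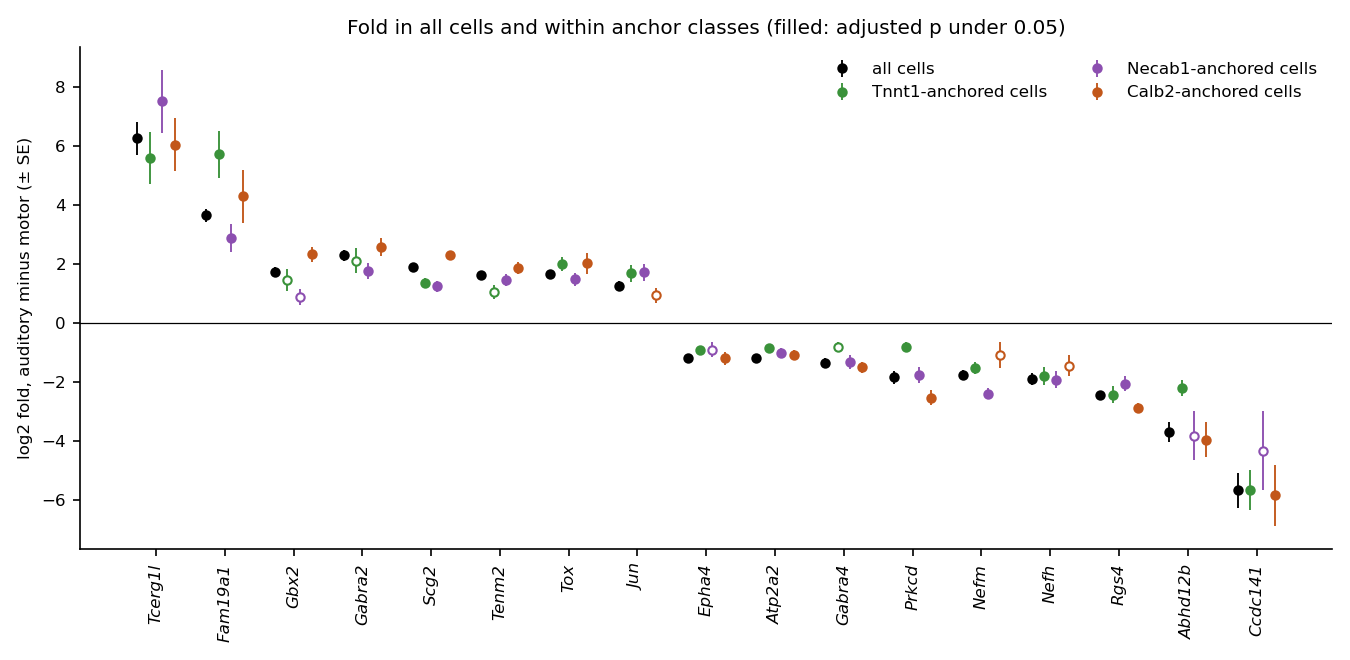
Log2 fold, auditory minus motor, with its SE for 17 genes over all cells (black) and within Tnnt1- (green), Necab1- (purple) and Calb2-anchored cells (orange); filled points have an adjusted p under 0.05. Rgs4 lies between -2.07 and -2.89 in all 4 fits, whereas Prkcd ranges from -0.81 in the Tnnt1 class to -2.54 in the Calb2 class.

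Among peptide genes, 6 of 16 tested in the Calb2 class were higher in auditory neurons and 0 in motor neurons. Nts was at 110, 202, 172, 275 and 349 CPM in the Calb2-anchored sums of auditory animals and at 0 in those of all motor animals, at least 566-fold higher with the motor total set at 3 counts (edgeR's adjusted p = 2.5e-05). Crh was at 65.5, 51.8, 284, 396 and 106 CPM against 0 in all motor animals, at least 350-fold higher (edgeR's adjusted p = 3.6e-05). Cartpt was at 30.6, 37.0, 185, 303 and 551 CPM against 1 UMI in motor cells (edgeR's adjusted p = 4.1e-07). In Tnnt1-anchored sums Nts was at 0 in auditory animals but replicate 3 (6.46 CPM), Crh at 0 but replicate 2 (7.71 CPM) and Cartpt at 0 to 0.461 CPM. Also called in the Calb2 class, and under every leave-out of 1 animal, were Gbx2 (2.33), Gabra2 (2.58), Gabra4 (-1.51), Tenm2 (1.86), Syn2 (2.51), Hpca (3.61) and Ldb2 (7.42), with edgeR's adjusted p-values of 3.3e-04, 6.1e-04, 6.0e-04, 3.3e-04, 6.1e-04, 0.013 and 3.4e-06.

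The system difference itself was tested between the Calb2 and the Tnnt1 class, with the animal as a block. Of 14974 genes 9 (0.0601%) were called, 5 with a positive interaction, that is an auditory minus motor fold higher in the Calb2 than in the Tnnt1 class (0.0334%), and 4 with a negative one (0.0267%), and the 9 became 5 without auditory replicate 4 or 5. The median interaction of all genes tested was 0.48, and 10651 of the 14974 genes had a positive one. Cartpt, with 1 UMI in the Calb2-anchored motor cells, had the largest fitted interaction (11.34 ± 1.26, edgeR's adjusted p = 2.4e-04), whose size depends on the prior count. Nxph1, a neurexophilin that binds α-neurexin, was at 0, 1.93, 1.49, 0.461 and 9.29 CPM in Tnnt1-anchored auditory sums against 58.5 to 127 CPM in motor sums. In Calb2-anchored sums it was at 101 to 168 against 103 to 210 CPM, so that the systems differed in the first class and overlapped in the second (interaction 5.51 ± 0.57, edgeR's adjusted p = 1.4e-04). Cbln2, a cerebellin, also had a positive interaction, but its animals overlapped in both classes. It was at 0, 31.6, 0.497, 0 and 1.33 against 27.0 to 258 CPM in Tnnt1-anchored sums, where only auditory replicate 2 reached the motor range. In Calb2-anchored sums it was at 139 to 336 against 20.2 to 328 CPM (6.65 ± 0.95, edgeR's adjusted p = 0.0045). Over all cells neither gene passed the test (Nxph1 -0.47, Cbln2 -0.10; edgeR's adjusted p = 0.14 and 0.92).

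Prkcd had a negative interaction, with the larger motor excess in the Calb2 class. It was at 1180 to 2381 against 1794 to 3276 CPM in Tnnt1-anchored sums, with overlap, and at 335, 443, 242, 451 and 158 against 1433, 1817, 1778, 1643 and 1989 CPM in Calb2-anchored sums (interaction -1.81 ± 0.20, edgeR's adjusted p = 1.9e-04). Slc9a3r1, a scaffold for membrane transporters, was at 74.2 to 259 against 133 to 269 CPM in the first and 10.5 to 54.6 CPM in auditory against 66.5 CPM or more in all 5 motor sums of the second (-2.65 ± 0.39, edgeR's adjusted p = 0.0062). These 5 interactions were called whichever animal was left out.

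Across the authors' own clusters, made from these cells and so given here without a test, the peptide genes were highest in 1 auditory cluster. Nts was at 3.13 and 6.76 CPM in the auditory clusters Aud_1 and Aud_2 and at 842 CPM in Aud_3, which held 63 cells (16.6% of auditory cells) and 11, 7.89, 16.7, 14.9 and 32.9% of those of replicates 1 to 5. Crh, Cartpt, Grp and Adcyap1 were likewise at 412, 573, 355 and 449 CPM in Aud_3 and at 0 to 27.5 CPM in the other auditory clusters. Prkcd ran against them, at 40.8 CPM in Aud_3, 434 CPM in Aud_2 and 1719 CPM in Aud_1. In the 4 motor clusters Prkcd was at 1509 to 3092 CPM and Nts at 0.123 to 0.295 CPM.

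For other genes every auditory cluster lay on 1 side of every motor cluster. Rgs4 was at 149 to 196 CPM in the 3 auditory and 640 to 1259 CPM in the 4 motor clusters, and Scg2 at 1523 to 4090 against 433 to 627 CPM. Tcerg1l was at 41.2 to 68.2 against 0.200 to 1.85 CPM, Fam19a1 at 64.2 to 152 against 0.516 to 9.78 CPM and Tox at 218 to 294 against 47.2 to 98.3 CPM. Pvalb was concentrated in the motor cluster Mot_1 (326 CPM, against 0.123 to 42.9 CPM in the other motor clusters), and Npy in Mot_1 and Mot_3 (26.8 and 20.4 CPM, against 3.02 and 0 CPM in Mot_2 and Mot_4). The motor animals differed in cluster make-up: Mot_3 held 59.5 and 75.6% of the cells of replicates 1 and 2 and 7.88 to 26.5% of the others, and Mot_2 held 58.8% of those of replicate 3. Over the clusters that the authors drew across all 5 systems, 76.1% of auditory cells fell in cluster 5 and 16.3% in cluster 8, against 1.45% and none of the motor cells, most of which were in clusters 4 (39.3%), 2 (32.4%) and 1 (13%).

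The other 3 systems give a scale for these levels, with no test made here. Mean Rgs4 was 207 ± 57.9 CPM (SD over animals) in prefrontal, 992 ± 136 in somatosensory and 608 ± 32.5 in visual neurons, beside 181 ± 21.7 in auditory and 929 ± 218 in motor neurons. Mean Scg2 was 867 ± 233, 574 ± 94.2 and 614 ± 186 CPM in the same 3 systems, beside 2066 ± 193 and 538 ± 59.6 CPM. Mean Nts was 2.84 ± 4.25, 0.0328 ± 0.0569 and 0.484 ± 0.687 CPM, beside 137 ± 58.6 and 0.204 ± 0.156 CPM. Mean Npy was 0.790 ± 1.30, 20 ± 13 and 0.570 ± 1.14 CPM, beside 0.0312 ± 0.0697 and 14.2 ± 7.25 CPM. By these means motor neurons lay nearest to somatosensory neurons in Rgs4, Scg2 and Npy, and auditory neurons nearest to prefrontal neurons in Rgs4 and Scg2.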

How the data were processed

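Counts of unique molecular identifiers (UMIs) per gene and cell were used as the authors deposited them in 1 table of 1972 cells, with a cell table giving projection, animal, sequencing batch and the authors' clusters. Per the labels' protocols, hand-picked cells received spike-in RNA and 3′ end libraries were read with a cell barcode and a UMI. The submitters' processing notes name cutadapt 1.16, Picard 1.12, STAR 2.5.3 and the build mm10; the gene annotation, the counting rule and the use of strand are not given in the sources used here. Counts of the 36589 genes were summed per animal; the 90 spike-ins were kept apart.

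For the sums, the quasi-likelihood F test of edgeR 4.0.16 was run in R 4.3.3 (filterByExpr, TMM, trended dispersion, batch as covariate), with Benjamini-Hochberg adjustment over all genes tested and a threshold of 0.05. SE is the size of the log2 fold divided by the square root of F. Shares and ratios were compared with exact permutation tests (scipy 1.17.1). Class sums held at least 5 cells. P-values measure the spread between animals, taken as independent although some animals of a system shared a sort date. The permutation tests took no account of batch or sort date. With cells summed per sort date, 487 genes were called rather than 1228, and 35 of the 141 named genes lost their call. Ratios for genes with 1 to 3 UMIs in a system have 95% exact binomial intervals; with 0 UMIs a floor of 3 counts over the system was used. Both cover counting error only. No doublet caller was run on these hand-picked cells. The authors marked 4 auditory and 7 motor cells under the entry is_ODC, whose meaning is not stated. These 11 cells had no cluster from the authors and were kept in the main sums. Oligodendrocyte markers summed to 126 to 463 CPM in animals with marked cells and to 28.0 to 63.3 CPM in animals with none.

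Named genes were the 15 with the largest fold in each direction among called genes with a symbol and a mean of at least 10 CPM, and any member of the gene lists; the text gives part of them, and some results are not reported here. Members and lists were chosen with earlier results of these data known. Alternatives were DESeq2 1.42.0, other scaling, no filter, no batch term, batches alone, sums per sort date, thinned cells, all 21 sums and leaving out each animal; leaving out each batch was chosen after seeing the data. Simulated versions of the 10 sums (5 draws, 16717 genes) returned 44 of 335 genes with a true 1.5-fold change, 128 of 335 at 2-fold and 223 of 330 at 4-fold, with 4.59% of calls false. The draws used 1 mean per gene and the trended dispersion, with no effect of batch or sort date. These rates therefore do not cover such effects in the real sums.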

Additional observations from a re-analysis of the deposited data

Results flagged for a closer look

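In groups of 5 animals, the highest or lowest animal stood apart from the others in 21 of 292 groups looked at. The 292 include groups under 1 CPM in all 5 animals, in which no animal was flagged. Chance alone gives about 1 in 20 only for normally distributed values. Whether the levels were so distributed was not tested, so no comparison with chance is made. Auditory replicate 5 held 6 of the 21, more than any other animal. Its levels were the highest of the auditory animals for Syt10 (37.3 CPM), Cartpt (367 CPM), Scn3b (874 CPM), Doc2a (40.8 CPM) and Gad2 (21.3 CPM), and the lowest for Atp2b2 (249 CPM). Auditory replicate 4 was highest for Bcan (6.58 CPM), Epha7 (49.4 CPM) and Sema7a (5.27 CPM), replicate 3 for Ccdc141 (4.86 CPM) and replicate 2 for Adm (6.39 CPM), and replicate 1 was lowest for Grik3 (12 CPM). Motor replicate 3 was highest for Grp (3.77 CPM), Abhd12b (472 CPM) and Grm8 (3.51 CPM). Motor replicate 5 was highest for Kcnip1 (4.58 CPM) and Thsd7b (4.13 CPM) and lowest for Atp2b1 (3017 CPM). Motor replicates 1, 2 and 4 were highest for Prox1 (184 CPM), Gabra5 (8.18 CPM) and Fbln1 (1.09 CPM).

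The system difference itself differed between the Calb2 and Tnnt1 classes, by a test of that difference, for 9 genes. The interaction, the auditory minus motor fold in the Calb2 class less that in the Tnnt1 class, was positive for Nxph1 (5.51), Cartpt (11.34), Cbln2 (6.65), Lhx2 (5.57 ± 0.94, edgeR's adjusted p = 0.028), a LIM-homeodomain factor, and Resp18 (1.40 ± 0.25, edgeR's adjusted p = 0.041), a protein of the secretory pathway. Nxph1 and Cbln2 had folds of -5.34 and -4.64 in the Tnnt1 class and -0.18 and 1.09 in the Calb2 class, whereas Lhx2 and Resp18 had 1.51 and 0.08 in the Tnnt1 and 6.61 and 1.5 in the Calb2 class. The interaction was negative for Prkcd (-1.81), Slc9a3r1 (-2.65), the kinase gene Lyn (-1.78 ± 0.32, edgeR's adjusted p = 0.043) and the endocytic adaptor gene Reps2 (-1.24 ± 0.23, edgeR's adjusted p = 0.043). Their folds were -0.81, -0.14, -0.07 and 0.34 in the Tnnt1 class and -2.54, -2.89, -1.64 and -0.86 in the Calb2 class. Leaving out 1 animal took the adjusted p of Lhx2 to as much as 0.13 (auditory replicate 5), Resp18 to 0.19 (auditory replicate 5), Lyn to 0.19 (motor replicate 2) and Reps2 to 0.2 (motor replicate 5).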

How the results depend on the processing

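No fold of a named gene changed sign under any alternative in which the gene was tested, and no difference in share changed sign under any alternative run. List medians did so for 16 of 33 lists under at least 1 alternative, such as thalamic transcription factors (-0.10, from -0.51 within batch 3 to 0.18 within batch 2 alone), and the median over all genes went from -0.03 to 0.01 with no batch term. Of the 141 named genes 45 kept their call in every alternative in which they were tested, and 96 lost it in at least 1. Some named genes were not tested in some alternatives, such as no batch term, and these cases are not counted. Calls were lost most often within batch 1 alone (63 genes) or batch 2 alone, where batch 2, like batch 3, has 1 animal in 1 system. The 1228 genes called between the systems were 2035 with DESeq2, 487 with sums per sort date, 264, 247 and 510 within batch 1, 2 or 3 alone, 506 and 456 without batch 1 or 3 (chosen after seeing the data), and 650 to 1194 when 1 animal was left out. The 42 genes of the Tnnt1 class were 455 with DESeq2, 303 with no filter and 12 to 53 when 1 animal was left out. The 46 of the Necab1 class were 87 with no batch term, 450 with DESeq2, 271 with no filter, 10 where the anchor had to be 2-fold above the next, and 9 to 49 when 1 animal was left out. The 193 of the Calb2 class were 691 with DESeq2, 511 with no filter and 54 to 175 when 1 animal was left out. The 9 interactions were 97 with no filter and 5 to 13 when 1 animal was left out. The lowest of the first 4 ranges came without auditory replicate 5, the shallowest sum and the only auditory animal of batch 3. The difference in Tnnt1-anchored share ranged from -19.3 to -7.71 points. The cause of these moves was not tested. No paired analysis was possible because the replicate numbers only name animals and the labels pair none between systems.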
